A study of Mus musculus with 6 samples.

Results

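Splicing factors and the CLK kinases that phosphorylate them were followed in splenic CD4+ T cell libraries from mice with colitis. The members were every gene of the deposited count table whose symbol names a serine/arginine-rich splicing factor (Srsf), a transformer 2 homologue (Tra2a, Tra2b), a CLK kinase (Clk1 to Clk4), a heterogeneous nuclear ribonucleoprotein (Hnrnp), an SF3A or SF3B subunit, a U2AF subunit or a numbered RNA-binding motif protein (Rbm). Symbols marked as pseudogenes were left out. The rule found 90 of 54532 genes, in 6 families of 13 Srsf and Tra2, 4 CLK, 20 Hnrnp, 9 SF3A and SF3B, 3 U2AF and 41 Rbm genes. Of these, 84 had enough counts to be tested. The other 6 were U2af1l4, Rbm11, Rbm8a2, Rbm46, Rbm46os and Rbm31y. All of them were at under 1 CPM (counts scaled to a common library total) in every library. Rbm46os and the tested Rbm3os are antisense RNAs caught by the symbol rule, and without a stated strand setting their reads and those of their partner genes cannot be told apart.

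All 6 libraries came from wild-type C57BL/6J mice that drank dextran sulfate sodium (DSS), a polysaccharide that injures the colonic epithelium. In 3 libraries the mice received Akkermansia muciniphila, a mucin-degrading gut bacterium, every day, and in 3 control libraries they received phosphate-buffered saline (PBS). For the age and sex of the mice, the DSS dose and the isolation of the cells, the labels have no entry. The descriptions name CD4 for the libraries numbered 1, CD5 for those numbered 2 and CD6 for those numbered 3 in both groups, while the cell type entry names CD4 for all 6. The design asks what treatment with the bacterium changes in the transcriptome of these cells. The replicates are called biological, but nothing says which animals they came from, so p-values measure the spread between these libraries only.

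Splicing removes introns from a new transcript. U2AF recognises the end of the intron, the SF3A and SF3B subunits of the U2 particle engage the branch point, and SR proteins bound to exons favour the use of nearby splice sites, often against hnRNP proteins. CLK kinases phosphorylate the serine/arginine stretches of SR proteins in the nucleus and so set where and how they act. Many of these genes limit their own output by splicing their transcripts into forms that stay in the nucleus or are degraded by nonsense-mediated decay. In T cells, splicing changes with activation, as in the exons of the phosphatase gene Ptprc (CD45).

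The libraries held 15032257 to 16677923 counts, so that 3 counts correspond to 0.181 to 0.2 CPM. Levels of 1 gene are CPM after TMM scaling, which corrects each library's total with a trimmed mean of the log ratios between libraries. Levels of different genes are compared only as the authors' FPKM, which are scaled for gene length. T cell markers fixed for the check of the label, 11 in all with Cd4 and Cd3e among them, summed to 5284 to 5625 CPM with Akkermansia and 5238 to 5582 CPM with PBS. The sums overlapped, but 6 of the 11 were called. Cd4 (0.36), Lck (0.33), Cd5 (0.33) and Cd3e (0.24) rose on the log2 scale, and Cd28 (-0.87) and Il7r (-0.53) fell. Transcripts of other cells moved with the groups. All 15 B cell markers rose, from a sum of 903 to 931 CPM with PBS to 1313 to 1493 CPM with Akkermansia. Ighm, the largest part of that sum, rose least (0.25 on the log2 scale), and the others rose by 0.89 to 1.79. Both CD8 T cell markers rose, from a sum of 19.1 to 20.2 CPM to 61.3 to 93.4 CPM. Of the 9 NK cell, 10 neutrophil, 7 dendritic cell and 10 monocyte and macrophage markers, 5, 1, 3 and 1 rose. Of 8 plasma cell markers 2 fell, while their sum ran from 630 to 785 CPM with Akkermansia and from 236 to 398 with PBS. Summed NK cell markers ran from 99.6 to 122 CPM with Akkermansia and from 66 to 84 with PBS, and neutrophil markers from 82.1 to 182 and from 15 to 61. Monocyte and macrophage markers summed to 527 to 567 and 423 to 502 CPM, and dendritic cell markers to 36.2 to 40.3 and 15.4 to 22.6 CPM. Erythroid markers, with no call among 6, ran from 211 to 369 CPM with Akkermansia and from 410 to 958 with PBS. No marker of any list was at 0 in all libraries, and the part of these transcripts in the results that follow was not tested. In bulk libraries, fewer cells of a type and less RNA per cell cannot be told apart.

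With Akkermansia, 27 of the 84 tested members fell and 6 rose (edgeR quasi-likelihood test, Benjamini-Hochberg adjusted over all genes tested, threshold 0.05). The falls made up 32.1% of the members, where 8.28% of all 15138 genes tested fell, and the rises 7.14%, where 7.32% of all genes rose. The members are abundant, and abundant genes are called more often. Among genes with a mean of at least 50 CPM, 12.9% fell and 12.7% rose, while of the 63 members at that level 24 fell (38.1%) and 5 rose (7.94%). The median log2 fold change was -0.13 over the 84 members and -0.01 over all genes tested, and 50 members lay below 0. In 34 members every Akkermansia library was below every PBS library and in 15 it was above, where 17.8% and 17.1% of all genes tested showed those patterns.

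Members took 1.9% to 1.94% of all counts in the Akkermansia libraries and 2.13% to 2.29% in the PBS libraries. The 2 ranges did not overlap, and the lowest PBS share was that of PBS 2. The falls were unevenly spread over the families. SR proteins and Tra2 had 10 falls among 13 genes, the CLK kinases 2 among 4, U2AF 1 among 2, the hnRNP proteins 5 among 20, SF3A and SF3B 2 among 9 and the RBM proteins 7 among 36. The rises were 1 hnRNP, 1 SF3A and 4 RBM genes. The difference between families was not tested.

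**Figure D1:**
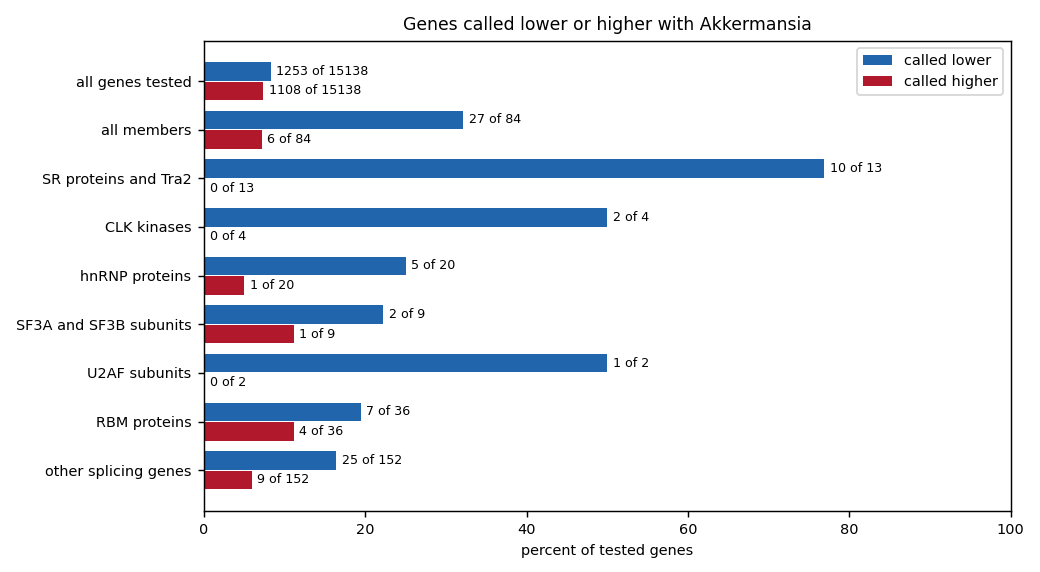
Percent of tested genes called lower (blue) or higher (red) with Akkermansia, for all genes tested, all members, each family and the other splicing genes, with counts beside the bars. The blue bar of the SR proteins and Tra2 reaches 76.9%, against 8.28% for all genes tested.

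**Figure D2:**
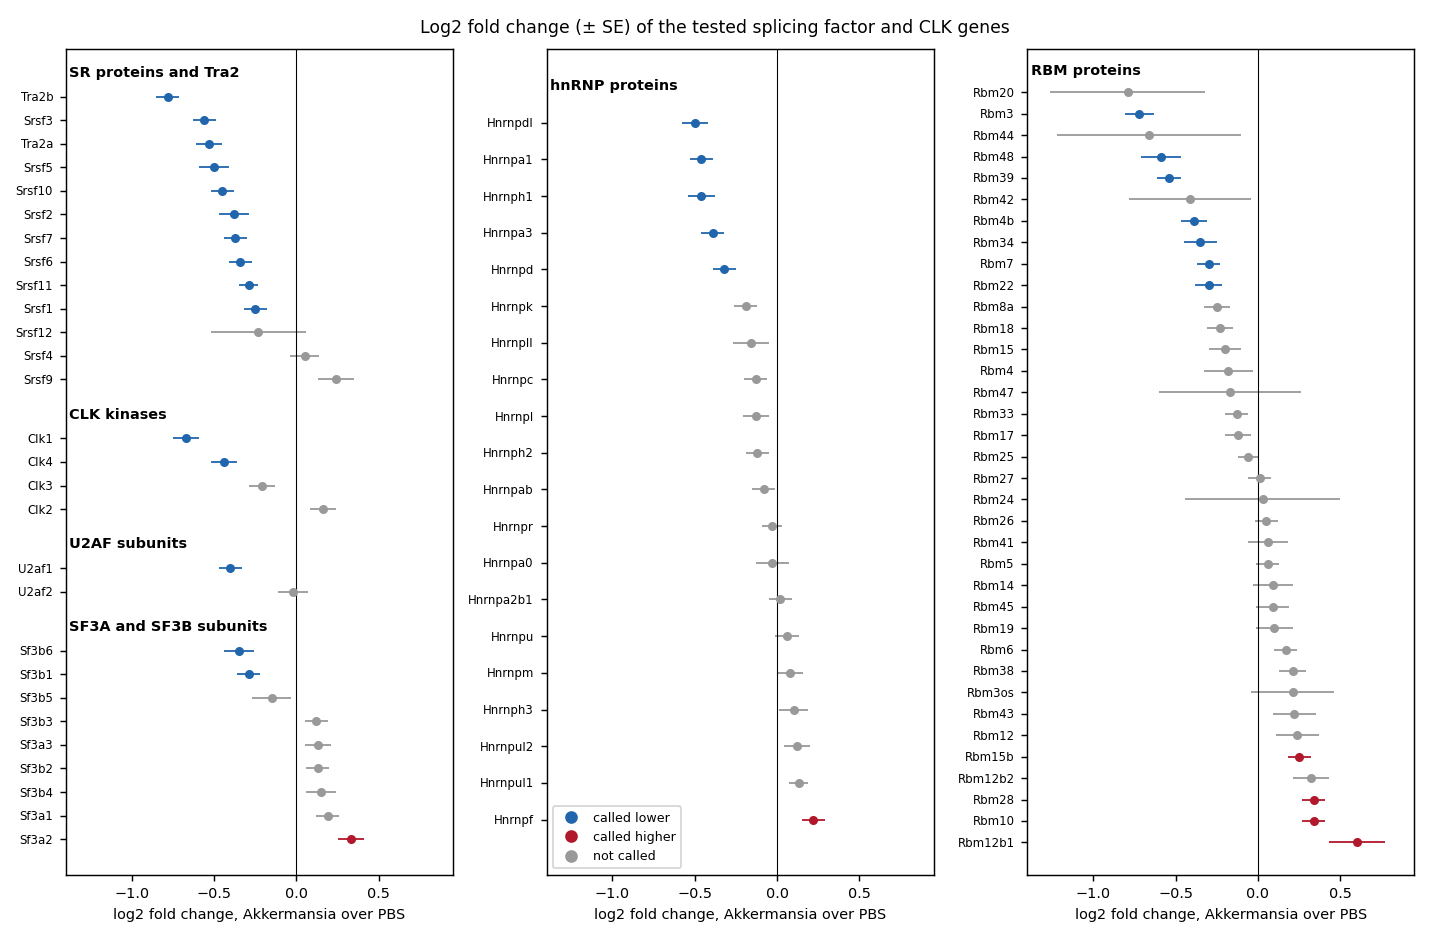
Log2 fold change of Akkermansia over PBS for each of the 84 tested members, with bars of 1 SE, ordered within families and coloured by call. In the SR protein and Tra2 panel 11 of 13 points lie left of 0, while the RBM points lie on both sides, 18 and 18.

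Among the SR proteins and their relatives, Tra2b had the largest fitted fall. It encodes a sequence-specific SR-like activator of exon inclusion. Its level was 290, 295 and 313 CPM in Akkermansia libraries 1, 2 and 3 and 531, 479 and 529 CPM in PBS libraries 1, 2 and 3. Every Akkermansia library was below every PBS library, and the log2 fold change was -0.78 ± 0.07 (SE, adjusted p = 4.1e-05), a change of -41.7%. Its paralogue Tra2a was at 235, 235 and 239 CPM with Akkermansia and at 349, 308 and 368 CPM with PBS. The groups were again apart, with a log2 fold change of -0.53 ± 0.08 (adjusted p = 0.000684). Tra2b made up 48.1% to 49.5% of the summed FPKM of both Tra2 genes with Akkermansia and 51.9% to 53.9% with PBS. Its share was thus lower in every Akkermansia library than in every PBS library. In CPM, which are not scaled for gene length, Tra2b was above Tra2a in every library of both groups. Which gene is the larger part rests on the gene lengths behind the authors' FPKM, and a change of the larger part was not tested.

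Srsf3, the smallest classical SR protein, which also helps to export mRNA, was at 414, 421 and 440 CPM with Akkermansia and at 634, 626 and 617 CPM with PBS. The PBS libraries lay close together, and the fall was 0.56 on the log2 scale (SE 0.07, adjusted p = 2e-04). Srsf5 was the SR protein gene with the highest FPKM, on average 258 over the 6 libraries. It was at 847, 851 and 863 CPM with Akkermansia and at 1300, 1012 and 1321 CPM with PBS. PBS 2 was the nearest of the PBS libraries to the Akkermansia group, without overlap, and the log2 fold change was -0.50 ± 0.09 (adjusted p = 0.00389).

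Srsf10, an SR protein that turns from activator to general repressor when it is dephosphorylated, fell from 218, 204 and 205 CPM with PBS to 155, 148 and 157 CPM. Its log2 fold change was -0.45 ± 0.07 (adjusted p = 0.000877). Smaller falls were found for Srsf7 (-0.37 ± 0.07, adjusted p = 0.00525), Srsf6 (-0.34 ± 0.07, adjusted p = 0.00616) and Srsf11 (-0.29 ± 0.06, adjusted p = 0.00907). Srsf2, a resident of nuclear speckles, and Srsf1, the founding SR protein, had log2 fold changes of -0.38 ± 0.09 (adjusted p = 0.0186) and -0.25 ± 0.07 (adjusted p = 0.0248). In all 10 called genes the groups did not overlap, where 17.8% of all genes tested were apart with Akkermansia lower. Calls and overlap come from the same libraries, so this is no separate support for the calls. Together the family summed to 808, 833 and 856 FPKM with Akkermansia and to 1112, 1028 and 1162 FPKM with PBS.

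Among Srsf and Tra2 genes 3 did not pass, and they were the 3 with the lowest FPKM. Srsf9 had a log2 fold change of 0.24 ± 0.11 (adjusted p = 0.155), Srsf4 of 0.05 ± 0.09 (adjusted p = 0.761) and Srsf12, at 0.937 FPKM on average, of -0.23 ± 0.29 (adjusted p = 0.654). They were named to complete the family, after their values were seen. Some calls of the family were lost when 1 library was left out. Srsf1 and Srsf2 were not called without Akkermansia 1, Akkermansia 2 or PBS 1 (adjusted p up to 0.143 and 0.0862). Srsf11 was not called without Akkermansia 2 or Akkermansia 3 (adjusted p up to 0.0582). On log2(FPKM + 0.1) with limma, Srsf1 and Srsf2 were not called (adjusted p = 0.0527 and 0.0712).

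Of the 4 CLK kinases, Clk1 and Clk4 fell. Clk1 was at 556, 522 and 572 CPM with Akkermansia and at 972, 781 and 873 CPM with PBS. The groups were apart by more than the range within either of them, and Clk1 fell by 0.67 on the log2 scale (SE 0.08, adjusted p = 0.000314), a change of -37.2%. Clk4, its closest relative, was at 138, 139 and 152 CPM with Akkermansia and at 204, 173 and 203 CPM with PBS, a log2 fold change of -0.44 ± 0.08 (adjusted p = 0.00319). Both calls held in every fit without 1 library, with adjusted p up to 0.00438 for Clk1 and 0.0278 for Clk4.

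Clk2 and Clk3 did not pass, and differences between the kinases were not tested. Clk2 was at 146, 135 and 135 CPM with Akkermansia and at 128, 109 and 134 CPM with PBS, with a log2 fold change of 0.16 ± 0.08 (adjusted p = 0.205). Its groups did not overlap, by a narrow margin. Clk3 was at 125, 123 and 123 CPM with Akkermansia and at 147, 125 and 157 CPM with PBS, with a log2 fold change of -0.21 ± 0.08 (adjusted p = 0.107). PBS 2 was level with the Akkermansia libraries, and without PBS 2 the fall of Clk3 was called (log2 fold change -0.29, adjusted p = 0.00872), as it was with the GC content and length offsets given further on. By FPKM, Clk1 was the most abundant of the 4 in both groups (67.7 ± 3.35 with Akkermansia and 107 ± 10.9 with PBS, SD, n = 3). Its share of the summed CLK FPKM was 50.8%, 50.1% and 51.5% with Akkermansia and 60.9%, 59.6% and 57.6% with PBS. The order below it was Clk4, Clk2 and Clk3 with PBS (33.1 ± 2.75, 23.2 and 16.8 FPKM), whereas with Akkermansia Clk2 and Clk4 were within their spread of each other (26.2 and 24.7 ± 1.44 FPKM).

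**Figure D3:**
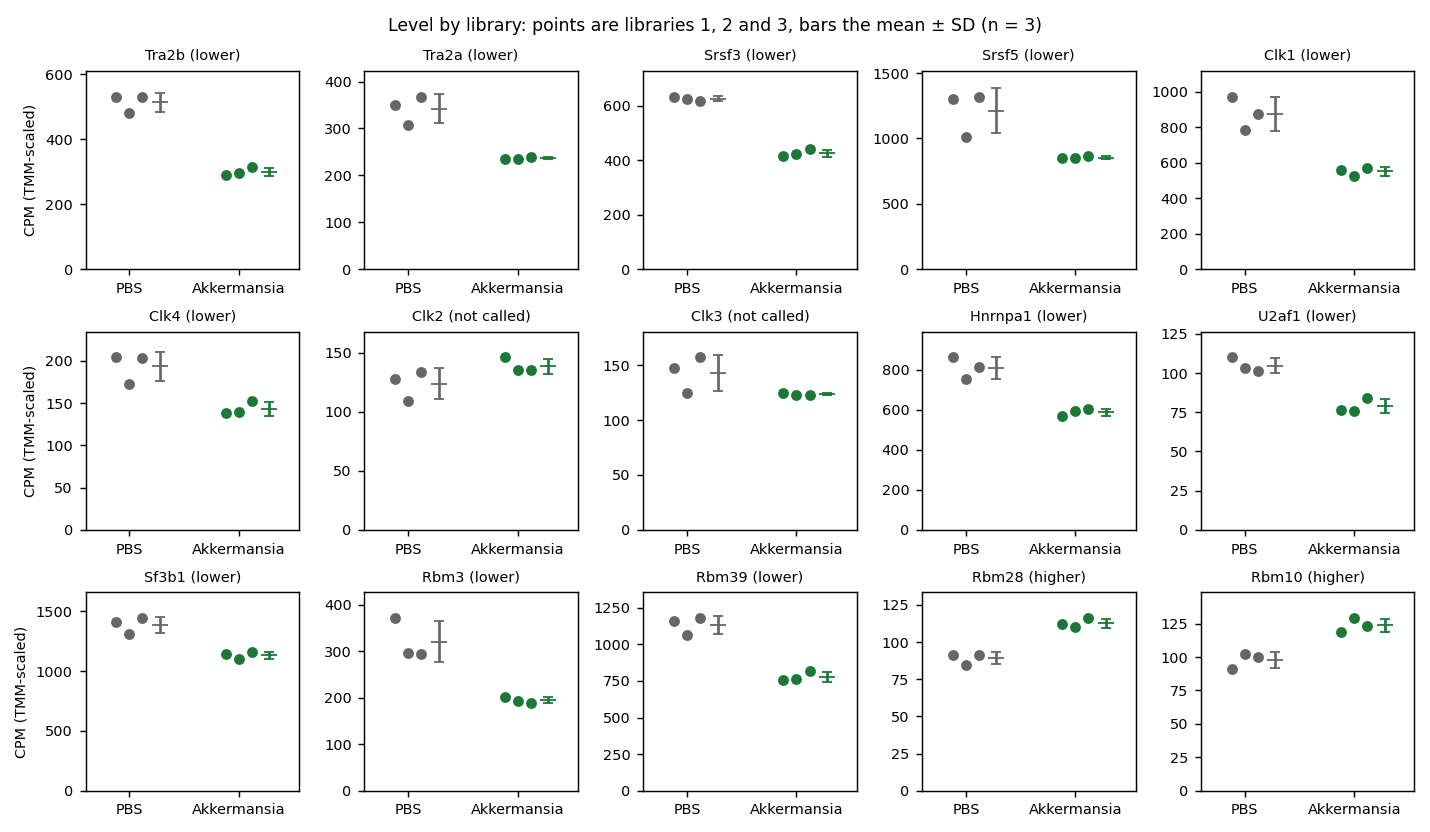
TMM-scaled CPM in each library for 15 members, from 0, with points for libraries 1, 2 and 3 of each group and a bar for the mean ± SD. For Tra2b the Akkermansia points lie at 290 to 313 CPM and the PBS points at 479 to 531 CPM, while for Clk3 the lowest PBS point is level with the Akkermansia points.

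Promoter sequences of the members were looked at as well, and a part of any word in the falls was not tested. RefSeq windows of 250 bases before to 50 bases after the gene start (GRCm38.p6, an older build than that of the files) were matched by symbol for 70 of the 84 tested members and for 24 of the 27 that fell. They were searched on both strands for 6 words. These were TGACGTCA (the cyclic AMP response element, CRE, bound by CREB family factors), CCAAT (the box bound by the NF-Y complex), CCGGAAG (a word bound by ETS factors), TATAAA (the TATA box), GCATGCGC (a core of the NRF1 site) and GAANNTTC (a unit of the heat shock element). The full CRE word was in the windows of Tra2a and Clk4 and of no other matched member. Both genes fell. They are shown because of that word, as the 200 bases before the start on the gene's strand, with the word in capitals. The Tra2a stretch is chr6:49264053-49264252 (minus strand), with the word beginning 27 bases before the start. The Clk4 stretch is chr11:51262914-51263113 (plus strand), with the word beginning 65 bases before the start.
Tra2a: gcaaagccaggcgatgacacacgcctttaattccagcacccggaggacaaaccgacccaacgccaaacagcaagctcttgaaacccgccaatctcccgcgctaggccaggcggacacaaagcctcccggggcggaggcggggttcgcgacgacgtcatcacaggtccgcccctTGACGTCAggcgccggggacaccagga
Clk4: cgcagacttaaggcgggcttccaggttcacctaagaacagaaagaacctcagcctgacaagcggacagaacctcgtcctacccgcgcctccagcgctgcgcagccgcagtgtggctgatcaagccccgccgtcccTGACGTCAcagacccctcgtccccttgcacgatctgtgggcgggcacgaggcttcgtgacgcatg

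The CRE word was found for 2.03% of 27025 genes, so that 2 of 70 members (2.86%) is near that share. These were all genes with a RefSeq window, tested here or not. Shares over tested or abundant genes alone were not taken, so a difference from all genes may go with expression. Some genes had more than 1 window and counted if any of them held the word. The ETS word was in 6 of 24 fallen members (25%), in 11 of 41 that did not pass (26.8%) and in 9.93% of all genes. The NRF1 word was in 4 of 24 fallen members (16.7%), in 1 of 41 that did not pass (2.44%) and in 3.05% of all genes. The 4 were Srsf7, Clk4, Srsf11 (in 1 of its 2 windows) and Hnrnph1 (in 1 of its 5 windows). CCAAT was in 11 of 24 (45.8%), 22 of 41 (53.7%) and 41.1%, TATAAA in 2 of 24 (8.33%), 7 of 41 (17.1%) and 15.7%. The heat shock unit was in 1 of 24 (4.17%), 5 of 41 (12.2%) and 9.04%. The words do not contain each other, and a match is a run of letters, not a bound site.

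Among the hnRNP proteins 5 of 20 fell and 1 rose, and the median log2 fold change was -0.10. Hnrnpa1, a splicing repressor and shuttling mRNA-binding protein, had the highest FPKM of the family (221 on average). It was at 569, 593 and 604 CPM with Akkermansia and at 863, 755 and 814 CPM with PBS, without overlap, and fell by 0.46 on the log2 scale (SE 0.07, adjusted p = 0.00128). Hnrnpa1 has processed pseudogenes with which the counting could have shared reads. Hnrnph1, which binds runs of G and acts on exons near them, was at 985, 1021 and 1054 CPM with Akkermansia and at 1454, 1282 and 1475 CPM with PBS. The gap between the groups was wider than the range within the PBS group, and the log2 fold change was -0.46 ± 0.08 (adjusted p = 0.00171).

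Hnrnpdl and its paralogue Hnrnpd, which binds AU-rich elements of unstable mRNAs, both fell. Hnrnpdl was at 319, 340 and 337 CPM with Akkermansia and at 505, 421 and 484 CPM with PBS (log2 fold change -0.50 ± 0.08, adjusted p = 0.00123). Hnrnpd had a log2 fold change of -0.32 ± 0.07 (adjusted p = 0.00891), and was not called without Akkermansia 2 (adjusted p = 0.0511). Hnrnpa3, a relative of Hnrnpa1, was at 130, 128 and 131 CPM with Akkermansia and at 177, 179 and 155 CPM with PBS (-0.39 ± 0.07, adjusted p = 0.00353). The groups did not overlap in any of these 5 genes, in the same libraries that gave the calls.

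Hnrnpf, which like Hnrnph1 binds runs of G, went the other way. It was at 466, 462 and 471 CPM with Akkermansia and at 384, 413 and 407 CPM with PBS, and rose by 0.22 on the log2 scale (SE 0.07, adjusted p = 0.0405). Its call was lost without any Akkermansia library or PBS 1 (adjusted p up to 0.144), on log2(FPKM + 0.1) (adjusted p = 0.0562) and with the replicate number as a block (adjusted p = 0.0531). The difference between Hnrnph1 and Hnrnpf was not tested. The other 14 hnRNP genes did not pass, with log2 fold changes from -0.19 for Hnrnpk to 0.13 for Hnrnpul1. Among them, chosen after their values were seen, were Hnrnpa2b1 (951 to 1029 CPM with Akkermansia and 948 to 986 with PBS) and Hnrnpll, which silences Ptprc exons in activated T cells (-0.16 ± 0.11, adjusted p = 0.363).

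The 3' splice site and branch point factors moved in both directions. U2af1, the small U2AF subunit, which contacts the AG at the intron's end, was at 76.7, 76 and 84 CPM with Akkermansia and at 110, 103 and 101 CPM with PBS. The groups were apart, and U2af1 fell by 0.40 on the log2 scale (SE 0.07, adjusted p = 0.00302). The large subunit gene U2af2, which binds the pyrimidine tract, did not pass (-0.02 ± 0.09, adjusted p = 0.918), and its sign turned in some fits without 1 library (-0.11 to 0.05). U2af1l4 was not tested.

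Of the SF3B subunits, Sf3b1, which holds the branch helix, was at 1140, 1102 and 1159 CPM with Akkermansia and at 1407, 1307 and 1442 CPM with PBS. It fell by 0.29 (log2, SE 0.07, adjusted p = 0.0151). Sf3b6, the subunit placed at the branch point adenosine, was at 37.3, 37 and 37.6 CPM with Akkermansia and at 43.2, 51.2 and 48 CPM with PBS (-0.35 ± 0.09, adjusted p = 0.0202). Neither SF3B call held without any single Akkermansia library (adjusted p up to 0.0929 and 0.0829). The family's falls thus numbered 0 in those fits, in which 3.97% to 4.85% of all genes tested fell. Sf3a2 rose, from 63.1, 59 and 66.5 CPM with PBS to 76, 84.9 and 76.1 CPM with Akkermansia (0.33 ± 0.08, adjusted p = 0.0146), and lost its call without Akkermansia 2 (adjusted p = 0.0897).

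The other 6 SF3 subunit genes did not pass. Their log2 fold changes were 0.19 ± 0.07 for Sf3a1, 0.13 ± 0.08 for Sf3a3, 0.13 ± 0.07 for Sf3b2, 0.12 ± 0.07 for Sf3b3, 0.15 ± 0.09 for Sf3b4 and -0.15 ± 0.12 for Sf3b5 (adjusted p from 0.0654 to 0.448). All 3 SF3A values were thus above 0, and the family median of 0.13 was the highest of the 6 families. Without PBS 2, Sf3a1 was called higher as well (0.21, adjusted p = 0.047). By FPKM, Sf3b1 (110) and Sf3b2 (99.2) were the most abundant of the family and Sf3b5 (8.02) the least.

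The RBM proteins share only a type of RNA-binding domain and hold many roles. Of 36 tested genes 7 fell and 4 rose, with a median log2 fold change of -0.02. Rbm3, a cold-inducible protein that supports translation, was at 201, 194 and 189 CPM with Akkermansia and at 371, 296 and 295 CPM with PBS. It fell by 0.72 on the log2 scale (SE 0.09, adjusted p = 0.000282), a change of -39.2%, and PBS 1 was its highest library. Rbm3os, from its antisense strand, did not pass (0.21 ± 0.25, adjusted p = 0.629). Rbm39, a U2AF-related factor and the RBM gene with the highest FPKM (137 on average), was at 757, 761 and 818 CPM with Akkermansia and at 1160, 1062 and 1178 CPM with PBS (-0.54 ± 0.07, adjusted p = 0.000443).

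Rbm48, a component of the minor spliceosome, was at 22.2, 22.4 and 30.1 CPM with Akkermansia and at 39.7, 37.9 and 34.5 CPM with PBS (-0.59 ± 0.12, adjusted p = 0.00736). Rbm4b was at 44.2, 44.2 and 41.9 CPM with Akkermansia and at 55.2, 57.3 and 58.3 CPM with PBS (-0.39 ± 0.08, adjusted p = 0.00539). Its close paralogue Rbm4 did not pass (-0.18 ± 0.15, adjusted p = 0.474), and the counting could have divided reads between them. Rbm7, part of a nuclear RNA decay complex, Rbm22, a protein of the catalytic spliceosome, and Rbm34 had log2 fold changes of -0.30 ± 0.07, -0.30 ± 0.08 and -0.35 ± 0.10 (adjusted p = 0.012, 0.02 and 0.0377).

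Rbm28, a nucleolar protein, rose from 91.3, 84.5 and 91.4 CPM with PBS to 112, 110 and 116 CPM with Akkermansia (0.34 ± 0.07, adjusted p = 0.00552), and was the 1 rise among all members that held in every fit without 1 library. Rbm10, a regulator of exon skipping, rose from 91.3, 102 and 100 CPM to 119, 129 and 123 CPM (0.34 ± 0.07, adjusted p = 0.00769), and lost its call without Akkermansia 2 (adjusted p = 0.0554). Neither overlapped between the groups, in the same libraries that gave the calls. Rbm15b, an adaptor of the RNA methylation machinery, was at 84.1, 86 and 80.1 CPM with Akkermansia and at 66.1, 71.4 and 72.8 CPM with PBS (0.25 ± 0.07, adjusted p = 0.0339). Rbm12b1 was at 18.3, 21.6 and 17.7 CPM with Akkermansia and at 10.4, 16.2 and 11.4 CPM with PBS (0.60 ± 0.17, adjusted p = 0.0287). Its paralogue Rbm12b2 had 0.32 ± 0.11 (adjusted p = 0.0804), and reads of this pair could also have been shared.

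Several RBM calls were lost when 1 library was left out. Over such fits the log2 fold changes ran from 0.2 to 0.28 for Rbm15b, from -0.37 to -0.24 for Rbm22 and from -0.41 to -0.29 for Rbm34. Rbm15b, Rbm22 and Rbm34 were not called without any Akkermansia library or PBS 1 (adjusted p up to 0.145, 0.104 and 0.165), Rbm12b1 without any library other than PBS 2 (up to 0.132) and Rbm7 without Akkermansia 1 or Akkermansia 2 (up to 0.0831). The falls numbered 4 without Akkermansia 1 or Akkermansia 2, where 4.85% and 3.97% of all genes tested fell. The rises numbered 2 without Akkermansia 1, Akkermansia 3 or PBS 1, 1 without Akkermansia 2 and 7 without PBS 2. Of all genes tested, 7.34% rose without PBS 2 and 3.31% to 4.38% in the other fits named. On log2(FPKM + 0.1), Rbm12b1, Rbm15b, Rbm22 and Rbm34 were not called (adjusted p = 0.0764, 0.0663, 0.0597 and 0.0915).

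Family medians were also taken library by library. The median deviation of the 13 SR protein and Tra2 genes from each gene's mean log2 CPM was -0.21, -0.16 and -0.17 in Akkermansia libraries 1, 2 and 3 and 0.27, 0.12 and 0.26 in PBS libraries 1, 2 and 3. PBS 2 was thus the nearest PBS library to the Akkermansia group, and it was so also for the CLK kinases (0.22, -0.01 and 0.27 in PBS 1, 2 and 3) and U2AF (0.18, -0.01 and 0.15). For the hnRNP proteins PBS 2 (-0.02) lay just above Akkermansia 1 and 3 (-0.03 each). For SF3A and SF3B the order was turned, with 0, 0.08 and 0.11 in the Akkermansia libraries and -0.06, -0.01 and -0.04 in the PBS libraries. RBM medians ran from -0.04 to 0.05 and overlapped. Over all genes tested the medians lay from 0 to 0.01. Without PBS 2, 31 members fell and 10 rose, where 9.04% of all genes tested fell and 7.34% rose. The rises among members numbered 3 without Akkermansia 1, Akkermansia 3 or PBS 1 and 1 without Akkermansia 2. In those fits 3.31% to 4.38% of all genes tested rose.

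**Figure D4:**
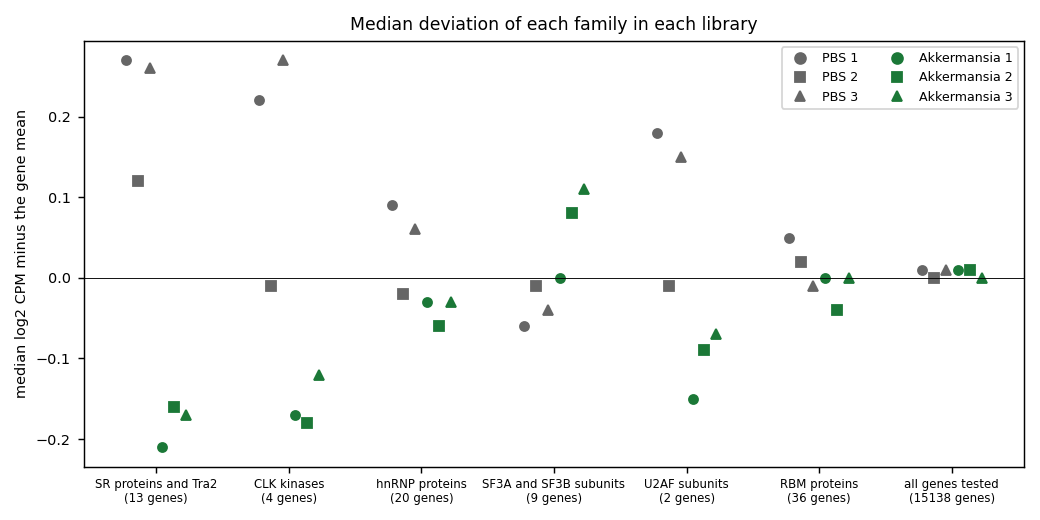
Median over each family's tested genes of log2 CPM minus the gene's mean over the 6 libraries, 1 point per library. The grey PBS points of the SR proteins and Tra2 lie at 0.12 to 0.27 and the green Akkermansia points at -0.21 to -0.16, with PBS 2 the lowest grey point.

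Annotated transcript features, which the rule did not use, were counted by call. In GENCODE M21, 21 of the 27 fallen members (77.8%) had at least 1 annotated transcript of the nonsense-mediated decay class, as did 19 of the 50 coding members that did not pass (38%) and 0 of the 6 that rose. The share was 29.4% over 12041 tested protein-coding genes and 33.6% over those with a mean of at least 50 CPM. Among the latter, genes that fell had a share of 34.3%. The feature also went with family. Srsf4, Srsf9, Clk2, Clk3 and U2af2 did not pass and had such a transcript too, while Srsf12 had none. Of the fallen Srsf, Tra2, CLK and U2AF genes only Srsf10 had none. Call and family were therefore not told apart by these shares. Shares by call within the hnRNP, SF3A and SF3B, and RBM families were not taken. An annotated retained intron was found in 24 of 27 fallen members (88.9%), in 35 of 50 that did not pass (70%), in 2 of 6 that rose and in 71% of protein-coding genes with a mean of at least 50 CPM. These are counts of annotated transcripts. The deposited values are per gene and do not measure which form was made.

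The fallen members were also poor in G and C. The median GC content of the longest coding transcript (of any transcript, for genes with none that code) was 43.2% for those that fell, 49.1% for those that did not pass, 52.5% for those that rose and 50.1% for all tested protein-coding genes. Among protein-coding genes with a mean of at least 50 CPM the median was 49.7%, and it was 45.7% among those that fell. Calls moved with GC content over all genes. When the tested genes were cut by GC content into 4 classes of equal size, 12.7% fell and 3.75% rose in the lowest class (18.1% to 44.8% GC), and 4.47% fell and 12.4% rose in the highest (54.3% to 86.2% GC). Within the lowest class 18 of 34 members fell (52.9%). In the next class 6 of 22 fell (27.3%, against 9.92% of all its genes), then 2 of 11 (18.2%, against 6%), and in the highest class 1 of 17 (5.88%).

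With offsets for GC content and length in each library, an alternative chosen after the data were seen, 21 members fell (25%) and 7 rose, while 7.35% of all genes fell. Of the 21 falls, 20 were among the 27. Not called then were Srsf1, Srsf2, Srsf7, Sf3b6, Rbm7, Rbm22 and Rbm34 (adjusted p = 0.0981, 0.0507, 0.0634, 0.195, 0.177, 0.064 and 0.131), and Rbm15b among the rises (adjusted p = 0.355). Clk3 was called lower (-0.29, adjusted p = 0.00983), and SR proteins and Tra2 then had 7 falls.

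**Figure D5:**
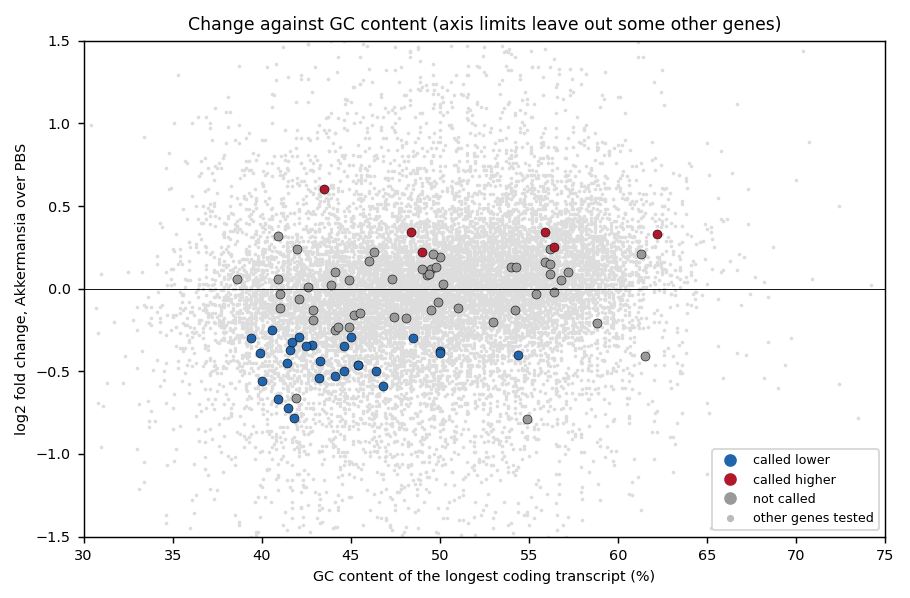
Log2 fold change against GC content of the longest coding transcript, with grey points for all other genes tested and coloured points for the 84 members by call. The blue points crowd at the left, 18 of them at up to 44.8% GC, and the red points lie from 43.5% to 62.2%.

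Other genes of the splicing pathway, 160 on 9 lists, were set beside the members, and 152 were tested. Of these 25 fell (16.4%) and 9 rose (5.92%), with a median log2 fold change of -0.05. Of all genes tested 8.28% fell and 7.32% rose, and of those with a mean of at least 50 CPM 12.9% fell and 12.7% rose, so that several of the lists lie near these shares. Falls numbered 3 of 10 among U1 particle genes and their partners, 1 of 7 in the Sm core, 1 of 10 among U2 particle partners, 2 of 22 among U4, U5 and U6 particle genes and 4 of 20 among Prp19 complex and catalytic step factors. They numbered 4 of 12 among other SR protein kinases and cyclins, 2 of 24 among SR-related and speckle proteins, 6 of 33 among other RNA-binding regulators and 2 of 14 among exon junction and nonsense-mediated decay factors. The rises were 1 each in the U2, catalytic step and SR-related lists and 2 each in the kinase, RNA-binding and decay lists.

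Among these genes, the U1-associated Luc7l3, Snrpc and Luc7l2 had log2 fold changes of -0.57 ± 0.07, -0.56 ± 0.08 and -0.56 ± 0.09 (adjusted p = 0.000297, 0.000988 and 0.002). Other falls were those of Snrpd1 of the Sm core (-0.56 ± 0.11, adjusted p = 0.00445), and of Rsrc2 (-0.43 ± 0.07, adjusted p = 0.0016) and Arglu1 (-0.25 ± 0.07, adjusted p = 0.023) of the SR-related list. On the list of Prp19 complex and catalytic step factors, Bud31 (-0.43), Prpf38a (-0.65) and Plrg1 (-0.37) fell (adjusted p = 0.00223, 0.00229 and 0.00918). Snrpa1, a protein of the U2 particle, had -0.43, Snu13 and Lsm4 of the U4, U5 and U6 list -0.33 and -0.25, and the RNA-binding regulators Mbnl2 and Ptbp2 -0.33 and -0.30 (adjusted p from 0.0127 to 0.0331). The cyclin gene Ccnk and the kinase gene Cdk11b had -0.32 and -0.41 (adjusted p = 0.013 and 0.0207), and Cherp and Scaf1 rose by 0.31 and 0.29 (adjusted p = 0.0231 and 0.0308). Cirbp, like Rbm3 a cold-inducible protein and named for that after its value was seen, fell from 112 ± 21.5 to 78 ± 6.15 CPM (-0.52 ± 0.13, adjusted p = 0.0283). Of the other kinases of SR proteins, Srpk3 rose at a low level, from 2.97 ± 0.266 to 6.01 ± 1.22 CPM (1.01 ± 0.24, adjusted p = 0.0123). Srpk1 (0.17 ± 0.07, adjusted p = 0.0951) and Srpk2 (0.01 ± 0.07, adjusted p = 0.923), the mainly cytoplasmic kinases that prepare SR proteins for nuclear entry, did not pass and were named after their values were seen. Smg1, the kinase of nonsense-mediated decay, rose from 935 ± 131 to 1293 ± 87.9 CPM (0.47 ± 0.10, adjusted p = 0.00858), while the exon junction genes Magoh and Eif4a3 fell (-0.52 ± 0.10 and -0.26 ± 0.07, adjusted p = 0.00386 and 0.0205). The number of falls on these lists was 11 without Akkermansia 1, 12 without Akkermansia 2 and 14 without Akkermansia 3, and that of rises 3, 2 and 2, and 4 without PBS 1. Of all genes tested, 4.85%, 3.97% and 4.06% fell without Akkermansia 1, 2 and 3. Rises were 4.15%, 3.31% and 3.41% of all genes tested there, and 4.38% without PBS 1.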

How the data were processed

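Gene-level values of 6 poly(A)-selected RNA-seq libraries were used. The authors deposited raw counts as whole numbers and FPKM rounded to 2 decimals, both from the table names and their values. The submitters' processing notes name the build GRCm39, with aligner, counter, annotation and strandedness each not given in the sources used here. FPKM of 78 members followed from their counts within 0.208% after 1 factor per library. Groups came from the treatment entry of the labels, and all libraries carry batch label 1.

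Counts were kept by filterByExpr (minimum count 10, minimum total 15; 15138 genes) in edgeR 4.0.16 (R 4.3.3), scaled by TMM and compared in a two-sided quasi-likelihood test with robust dispersion and no covariate. The SE is the log2 fold change divided by the square root of F. Family medians by library used log2 CPM with a prior count of 2. Alternatives used DESeq2 1.42.0, limma 3.58.1 (voom, and trend on log2(FPKM + 0.1)), RLE factors, library totals, 2 other filters, the replicate number as a block, and fits lacking 1 library. GC content, length and transcript classes came from GENCODE M21, which held 90 of 90 members. GC and length offsets were natural splines with 4 degrees of freedom. The procedure was tested on simulated counts, where most of the smaller fold changes were missed and the share of false calls was above the threshold. Counts of same-group libraries differed beyond sampling noise (chi-square per gene 4.53 to 20.3), so no library was counted as a copy of another. This does not show that they came from separate animals.

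Members and lists were chosen with earlier results of these data known. Named were all tested CLK, Tra2, U2AF, SF3A and SF3B genes, every other member past the threshold, the most abundant of each family, and up to 3 called genes per list of other splicing genes, apart from an item that is not reported here.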

Additional observations from a re-analysis of the deposited data

How the results depend on the processing

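The 27 falls were the same genes with DESeq2, limma-voom, RLE factors, library totals, a filter of 1 CPM in 3 libraries, no filter and the replicate block. No called member changed sign in any alternative run. On log2(FPKM + 0.1), rises numbered 3 among all members, 0 among hnRNP, 2 among RBM and 5 among other splicing genes. GC content and length offsets gave a median of -0.09, 1 fall among SF3A and SF3B and 4 among RBM genes. With the replicate block 27 members fell, 5 rose and no hnRNP gene rose (0). Same-numbered libraries of the 2 groups share a number and a description, and had correlations of 0.08, 0.08 and 0.03 between their deviations from the group means, against -0.07 to 0 for other pairs. Each library correlated best with its own number. The values are small, and deviations from a mean of 3 libraries are tied to each other, so the pattern cannot settle whether a number marks a pair. The labels do not say that a number marks shared animals or days, so the fit without the block was kept. Over fits without 1 library, members numbered 18 to 31 lower and 1 to 10 higher, with a median from -0.12 to -0.10. The share of members that fell ran from 20.9% to 36%. Of all genes tested, 3.97% to 9.04% fell and 3.31% to 8.31% rose in these fits. The ranges of rises were 0 to 1 for hnRNP, 0 to 2 for SF3A and SF3B, 1 to 7 for RBM and 2 to 10 for other splicing genes. The ranges of falls were 0 to 2 for SF3A and SF3B, 4 to 9 for RBM and 11 to 30 for other splicing genes. In all 6 of these fits 18 of the 27 falls and 1 of the 6 rises were called. A fit without 1 library tests fewer samples. With 3 libraries a group, a gene that did not pass, such as Hnrnpk or Clk2, is not shown to be equal.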

Other observations

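Further steps of mRNA processing were looked at in lists chosen after the results above were seen, so their counts are descriptions. Of 9 minor spliceosome genes 2 fell and none rose: Zrsr1, a relative of U2af1, from 75.5 ± 6.64 to 42.5 ± 0.576 CPM (SD, n = 3, log2 fold change -0.83 ± 0.08 SE, edgeR adjusted p = 7.65e-05), and Rnpc3, a protein of the U11/U12 particle, from 34.2 ± 1.73 to 21 ± 0.289 CPM (-0.70 ± 0.10, adjusted p = 0.00056). Rbm48, described above, belongs to the same machinery. Of 13 genes of RNA methylation 4 fell and none rose, among them Ythdc1, the nuclear reader of N6-methyladenosine, from 441 ± 38.8 to 302 ± 12.3 CPM (-0.55 ± 0.08, adjusted p = 0.000683), while the adaptor Rbm15b rose.

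Of 12 mRNA export genes 3 fell, Alyref (-0.48 ± 0.07, adjusted p = 0.000998), Nxf1 and Thoc1 (-0.28 each), and Ddx39b, a helicase of the same pathway, rose by 0.31 ± 0.07 (adjusted p = 0.00829). Of 18 cleavage and polyadenylation genes 4 rose, Papola, the poly(A) polymerase, by 0.35 ± 0.08 (adjusted p = 0.00978), Sympk (0.30), Cpsf2 (0.26) and Cpsf1 (0.24). Pcf11, which acts in transcription termination, fell by 0.36 on the log2 scale (adjusted p = 0.00593). Of 8 tested SMN complex genes 1 fell, Strap (-0.28 ± 0.07, adjusted p = 0.0158). These libraries are the ones in which 8.28% of all genes tested fell and 7.32% rose.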
